A study of Mus musculus with 6 samples.

Results

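The CCN genes encode a small family of secreted matricellular proteins, which sit in the extracellular matrix and signal to cells rather than carry load. The proteins are built from modules that resemble insulin-like growth factor binding protein, von Willebrand factor type C and thrombospondin type 1 domains, and all but CCN5 end in a cystine knot. They act through integrins, heparan sulphate proteoglycans and LRP receptors. In the heart, CCN2 (connective tissue growth factor) is best known as a companion of fibrosis downstream of Ang-II and TGF-β, CCN1 (Cyr61) as an immediate early gene product with roles in angiogenesis and fibroblast senescence, and CCN5 (Wisp2) as a member with actions opposed to those of CCN2. *Ccn1* and *Ccn2* are also textbook target genes of YAP and TEAD, the effectors of the Hippo pathway.

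The 5 genes *Ccn1*, *Ccn2*, *Ccn3*, *Ccn4* and *Ccn5* were taken by symbol from a count table of 56748 genes, and all 5 passed the filter on low counts that left 13888 genes to test. The libraries came from 6 hearts, 3 of Pontin cTG animals and 3 of their WT littermates. All were male, on a C57Bl/6 background and 10 weeks old at the start, and both groups were given Ang-II from a mini-pump, 1.5 mg per kg of body weight each day over 14 days. The transgene is a human Pontin (*RUVBL1*) cDNA with a flag tag, placed behind the mouse α-MHC promoter that drives it in cardiomyocytes, so it is not directed to the fibroblasts and vascular cells that make much of the CCN protein. How many founder lines the 3 mice represent is not given in the sources used here. Hearts without Ang-II were not analysed here, so that every level below is a level under Ang-II and says nothing of how far Ang-II had moved it.

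WT libraries held 12436822 to 13194038 counts, and every transgenic library held more, from 14584102 to 16888124. Mouse *Ruvbl1* had 218 ± 2.72 normalised counts in WT against 247 ± 5.79 in the transgenic hearts (SD, n = 3 each). The groups did not overlap, as in 8.33% of all genes tested. The log2 difference was 0.18 with a standard error of 0.12, and p was 0.999 after adjustment in edgeR. The mouse gene need not capture what the human cDNA yields. Pontin cTG replicate 2 stood apart on the first principal component, at 50.9 against -23.1 to 16.2 for the other libraries, of which WT replicate 2 was the highest. The cardiomyocyte list summed to between 619358 and 754635 normalised counts. Of the atrial markers, *Sln* had at most 1.12, but *Myl7* reached 6.73 and *Myl4* had 8.81 to 43.7. Of the epicardial markers, *Upk3b* had at most 1.73, but *Wt1* had 51.6 to 102. In these bulk samples, fewer cells of a type and less RNA per cell cannot be told apart.

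*Ccn1* (ENSMUSG00000028195) lies on chromosome 3 from 145352731 to 145355736 on the minus strand and *Ccn2* (ENSMUSG00000019997) on chromosome 10 from 24471340 to 24474581 on the plus strand. *Ccn3* (ENSMUSG00000037362, 54609098 to 54617435) and *Ccn4* (ENSMUSG00000005124, 66763169 to 66795050) share the plus strand of chromosome 15, and *Ccn5* (ENSMUSG00000027656) lies on chromosome 2 from 163662781 to 163675066, also on the plus strand. All 5 are annotated as protein-coding. These positions are those of the count table, and GRCm39 is the build that the submitters' processing notes name. *Ccn2* is overlapped on the opposite strand by the lncRNA gene *Gm15270*, which had 196 counts over all libraries against 7434 for *Ccn2*, and whether counting used the strand is not given in the sources used here.

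*Ccn1* was the only member with a promoter sequence to hand. The 250 bases before the *Ccn1* start are shown, from RefSeq on GRCm38.p6 at chr3:145649986-145650235, minus strand, with the core TEAD motif in capitals:

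Ccn1 promoter: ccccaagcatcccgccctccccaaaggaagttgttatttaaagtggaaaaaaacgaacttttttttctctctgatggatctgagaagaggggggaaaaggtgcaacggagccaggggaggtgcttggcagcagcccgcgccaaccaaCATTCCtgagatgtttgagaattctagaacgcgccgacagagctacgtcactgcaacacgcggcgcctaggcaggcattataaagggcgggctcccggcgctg

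The motif searched for was GGAATG on both strands, found here as its reverse complement from 103 to 98 bases before the start, and 12.6% of 32851 promoter windows of this length hold it. The window also held TGACG, the core of the cAMP response element, on the reverse strand (58 to 54 bases before the start; 17.8% of windows) and TATAAA on the forward strand, searched on both strands (25 to 20 bases; 12.4%). The AP-1 motif TGANTCA (6.75% of windows) and the CArG box bound by SRF (1.47%) were not found. No motif overlapped another, and a match in letters is not a measurement of binding. Of the 5 genes, 1 had an entry in the promoter table.

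The family was dominated by *Ccn2* and *Ccn1*. Levels were compared between genes as CPM (counts scaled to the TMM-adjusted library size) per kilobase of gene length. *Ccn2* was highest, at 29.5 ± 5.84 among WT and 32.0 ± 14.7 among transgenic hearts (SD, n = 3 each), followed by *Ccn1* at 24.5 ± 3.46 and 24.2 ± 5.31. The ranges of these neighbours overlapped, with *Ccn2* above *Ccn1* in 5 of 6 libraries. *Ccn5* came next, at 5.57 ± 2.13 among WT and 5.92 ± 5.58 among transgenic hearts, and its range of 1.87 to 12.3 over the 6 libraries overlapped with no other member's. *Ccn3* (0.962 ± 0.379 and 1.09 ± 0.327) and *Ccn4* (0.715 ± 0.0563 and 0.629 ± 0.0886) closed the order with ranges that overlapped each other. Without division by length, *Ccn4* moved from rank 5 to rank 4, above *Ccn3*. *Ccn6*, the remaining family gene of the mouse, had 5 counts in all and 0 in 3 of 6 libraries, where a count of 0 allows up to 3 counts in that library, and it was not tested. It overlaps *Tube1* on the opposite strand.

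**Figure D1:**
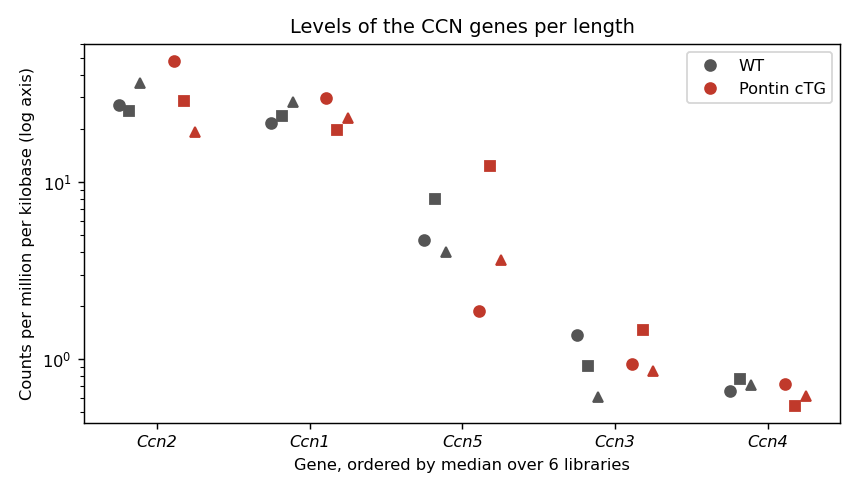
CPM per kilobase (log axis) of the 5 CCN genes, 1 point per library, grey for WT and red for Pontin cTG hearts; circles, squares and triangles are replicates 1, 2 and 3, numbers that do not pair the groups. *Ccn2* and *Ccn1* lie between 19.3 and 48.1, *Ccn5* spreads from 1.87 to 12.3, and *Ccn3* and *Ccn4* lie between 0.546 and 1.46.

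Expressed as shares of the summed family level in each library, *Ccn2* took 40.7% to 58.9% and *Ccn1* took 31.2% to 48.6%. The share of *Ccn5* ran from 2.30% in Pontin cTG replicate 1 to 19.6% in Pontin cTG replicate 2. *Ccn3* and *Ccn4* took at most 2.46% and 1.32%. The ratio of *Ccn2* to *Ccn1* per length was between 1.06 and 1.27 in WT libraries and was 1.60, 1.47 and 0.837 in Pontin cTG replicates 1 to 3. The spread of this ratio among the 3 transgenic hearts therefore enclosed that among the 3 WT hearts.

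No CCN gene passed the test between the genotypes. Of the 5 members 0 passed an adjusted p of 0.05, and of all 13888 genes tested 0 did (0%) in edgeR's quasi-likelihood test with adjustment by Benjamini and Hochberg. At an unadjusted p under 0.05, 0 of the 5 members stood beside 285 of all genes (2.05%). DESeq2 called 1 gene at an adjusted p under 0.05, with 217 at an unadjusted p under 0.05, and limma-voom with sample quality weights called 3, with 810 (5.83%), none of them a CCN gene at the adjusted threshold. The WT and Pontin cTG values overlapped for all 5 members, whereas 8.33% of all genes tested had groups that did not overlap. Normalised counts, given below, are counts scaled to the geometric mean of the TMM-adjusted library sizes. With 3 hearts per group an exact permutation test cannot go below p = 0.1.

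*Ccn1* had 613, 674 and 806 normalised counts in WT hearts, in the order of replicates 1 to 3 used throughout, and the transgenic hearts had 852, 556 and 654. The highest and the lowest of the 6 values were both in transgenic hearts, and the WT values fell between them. The WT mean was 698 ± 98.5 and the transgenic mean 687 ± 151 (SD, n = 3 each). On the log2 scale the difference was -0.023 with a standard error of 0.18, with p = 0.999 after adjustment in edgeR and p = 0.9 in a two-sided exact permutation test. The 95% interval of the fold ran from 0.740 to 1.31.

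*Ccn2* had 1096, 1013 and 1455 normalised counts in WT against 1938, 1158 and 776 in the transgenic hearts. Again, Pontin cTG replicate 1 was the highest library and WT replicate 3 the next, while Pontin cTG replicate 3 was the lowest. The WT mean was 1188 ± 235 and the transgenic mean 1291 ± 592 (SD, n = 3 each). On the log2 scale the difference was 0.12 with a standard error of 0.30, with p = 0.999 after adjustment in edgeR and p = 0.8 in a two-sided exact permutation test. The interval of the fold ran from 0.677 to 1.74. Once Pontin cTG replicate 1 was left out, the log2 difference was -0.29, and with replicate 3 of that group left out it was 0.38, so that the direction depended on which transgenic heart was kept.

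*Ccn5* showed the widest spread of the family. It had 128, 216 and 108 normalised counts in WT against 50.8, 333 and 97.9 in the transgenic hearts, and the highest and lowest transgenic hearts differed 6.56-fold. Replicate 2 was the highest library of each genotype. The WT mean was 151 ± 57.6 and the transgenic mean 161 ± 151 (SD, n = 3 each). On the log2 scale the difference was 0.096 with a standard error of 0.61, with p = 0.999 after adjustment in edgeR and p = 1 in a two-sided exact permutation test. The interval of the fold ran from 0.406 to 2.81. Once Pontin cTG replicate 2 was left out, the log2 difference was -1.01, with an unadjusted p of 0.0287, a threshold that 4.91% of the 13978 genes in that fit passed, and an adjusted p of 0.889 from edgeR. The 2 remaining transgenic hearts, 50.8 and 97.9, then lay below all 3 WT hearts (p = 0.2 in an exact permutation test, two-sided, and 2 against 3 cannot give less). The heart left out held the highest *Ccn5* value, so its removal by itself lowers the transgenic group, and no difference is read from these values. Without Pontin cTG replicate 1, the lowest *Ccn5* library, the log2 difference was 0.53 (unadjusted p = 0.315 in edgeR). The direction thus depended on which transgenic heart was left out. In limma-voom with sample quality weights the log2 fold change was -0.83 (unadjusted p = 0.0318, adjusted p = 0.844). Of the 13888 genes in that fit, 5.83% had an unadjusted p under 0.05. Such weights lessen the part of more variable libraries, so this may not be a separate check of the fit without Pontin cTG replicate 2.

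*Ccn3* (Nov), known as an inhibitor of proliferation in several cell types, had 55.1, 37.0 and 24.6 normalised counts in WT against 38.1, 59.1 and 34.7 in the transgenic hearts. The WT values spanned a wider range than the transgenic ones and overlapped them. The WT mean was 38.9 ± 15.3 and the transgenic mean 43.9 ± 13.2 (SD, n = 3 each). On the log2 scale the difference was 0.18 with a standard error of 0.36, with p = 0.999 after adjustment in edgeR and p = 0.6 in a two-sided exact permutation test. The interval of the fold ran from 0.641 to 1.99. Its raw counts were few, from 22 (exact Poisson 95% interval 13.8 to 33.3) to 69 (53.7 to 87.3), intervals that cover counting error only. Once Pontin cTG replicate 2 was left out, the log2 difference was -0.099, and without WT replicate 1 it was 0.52.

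*Ccn4* (Wisp1), a Wnt-induced member linked to fibroblast proliferation, was the steadiest. It had 51.8, 60.6 and 55.9 normalised counts in WT against 56.6, 42.8 and 48.5 in the transgenic hearts. Pontin cTG replicates 2 and 3 were below all WT libraries and replicate 1 was within the WT range. The WT mean was 56.1 ± 4.41 and the transgenic mean 49.3 ± 6.94 (SD, n = 3 each). On the log2 scale the difference was -0.19 with a standard error of 0.23, with p = 0.999 after adjustment in edgeR and p = 0.3 in a two-sided exact permutation test. The interval of the fold ran from 0.609 to 1.27. It was the only member whose log2 fold change kept its sign in all 14 alternatives tried, from -0.29 to -0.035.

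**Figure D2:**
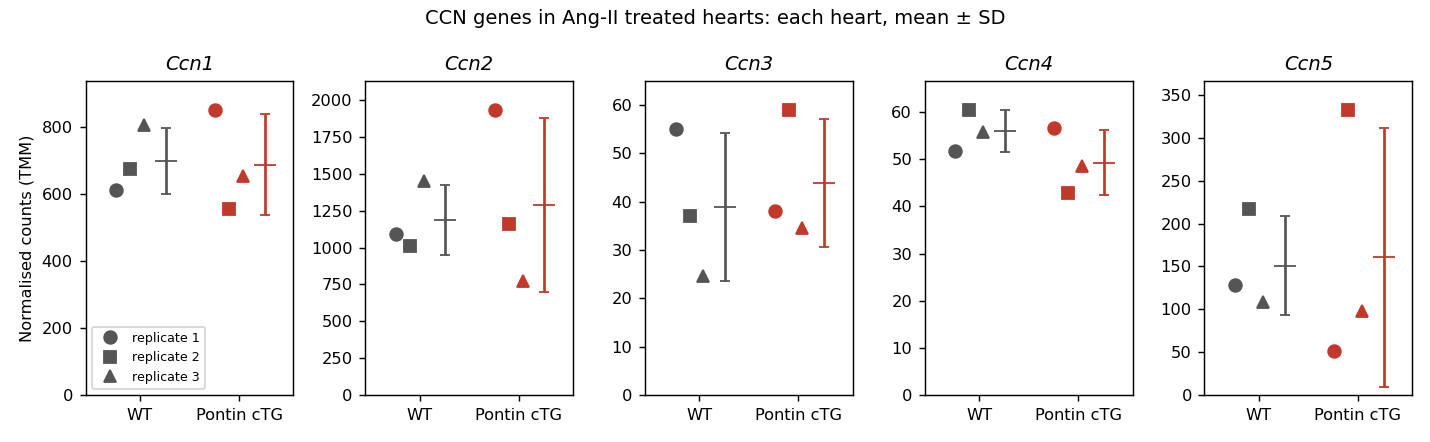
Normalised counts (TMM) of each CCN gene in the 3 WT (grey) and 3 Pontin cTG hearts (red), with the mean and SD of each group at its right; vertical axes start at 0. The groups overlap in every panel, and the largest SD relative to its mean is that of *Ccn5* in Pontin cTG hearts (161 ± 151).

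**Figure D3:**
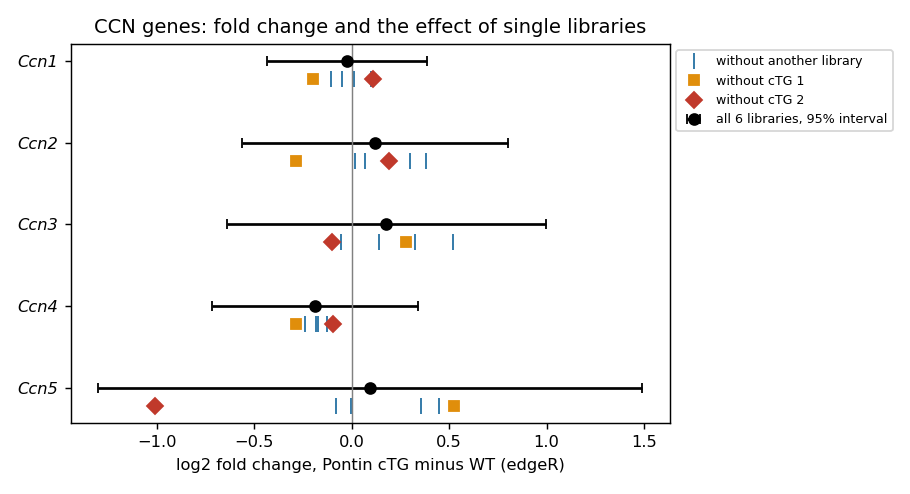
Log2 fold change of each CCN gene from edgeR, Pontin cTG minus WT, with its 95% interval (black) and, below it, the value without each library in turn (cTG 1 and cTG 2 are Pontin cTG replicates 1 and 2). All 5 intervals include 0. *Ccn2* moves to -0.29 without cTG 1, and *Ccn5* to -1.01 without cTG 2 and 0.53 without cTG 1.

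The members differed in how much their levels varied between hearts of 1 genotype. The SD within groups on the log2 scale was 1.02 for *Ccn5*, where counting error alone would give 0.14, and 1.09% of all genes tested had a larger one. Among 2186 genes within 0.5 of its mean log2 CPM, 0.457% had a larger one and the median was 0.22. *Ccn2* had 0.51, against 0.043 from counting, and 2.51% of 1196 genes of its level exceeded it. *Ccn1* had 0.26, against 0.055 from counting, and 24.7% of 2008 genes of its level exceeded it. For *Ccn3* the SD was 0.48 against 0.24 from counting. For *Ccn4* it was 0.16 against 0.20 from counting, so that the spread of *Ccn4* between hearts was no wider than counting error.

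The variable members did not peak in the same heart. *Ccn2* and *Ccn1* were highest in Pontin cTG replicate 1, where *Ccn5* was lowest, and *Ccn5* and *Ccn3* were highest in Pontin cTG replicate 2, where *Ccn1* was lowest. Over the 6 libraries, which share their normalisation, Pearson's r of log2 CPM was 0.69 between *Ccn1* and *Ccn2* (Spearman's coefficient 0.49), 0.86 when Pontin cTG replicate 2 was left out and 0.39 without replicate 1 of the same group. Between *Ccn1* and *Ccn5* it was -0.80 (Spearman's coefficient -0.71), and between *Ccn2* and *Ccn5* it was -0.46, or 0.16 without Pontin cTG replicate 1. With the members of few counts, *Ccn1* had an r of 0.71 for *Ccn4* (Spearman's coefficient 0.77) and -0.76 for *Ccn3* (-0.60). Its r with *Ccn2* was thus not its highest in the family. These are descriptions of 6 hearts of 2 genotypes. The erythroid genes, 5 of 5 tested with 0 called, also summed highest in Pontin cTG replicate 1 (21216 normalised counts) and WT replicate 3 (22338), the pair of libraries highest for *Ccn1* and *Ccn2*. The sum ranged from 13186 to 22338 in WT and from 11695 to 21216 in the transgenic hearts. Pontin cTG replicate 2, the lowest library for *Ccn1*, came next for this sum at 19437, so the orders differed. The part of erythroid genes in the *Ccn1* and *Ccn2* values was not tested.

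The 3 genes most like each member were sought by Pearson's r over the 6 libraries among 10769 genes with a mean log2 CPM of at least 2. For *Ccn2* they were *Itga5* (r = 0.975), which encodes an integrin subunit of the fibronectin receptor, *Plxna2* (0.970) and *1810055G02Rik* (0.969). *Itga5* had 949, 865 and 998 normalised counts in WT against 1211, 928 and 708 in the transgenic hearts, so that its highest and lowest libraries were those of *Ccn2*. For *Ccn1* they were *Mapk1ip1l* (0.989), *Map7* (0.987) and *Tmem100* (0.986). For *Ccn5* they were *Arhgap29* (0.995), *Pin4* (0.986) and *0610030E20Rik* (0.985). *Arhgap29* had 1231, 1522 and 1134 in WT against 915, 1791 and 1092 in the transgenic hearts. For *Ccn3* they were *Cacnb3* (0.991), *Klk8* (0.981) and *Wdr77* (0.978), and for *Ccn4* they were *Washc4* (0.989), *mt-Tg* (0.986) and *Slc37a3* (0.984), matches that rest on few counts of the members. An r above 0.9 was reached by 37 genes for *Ccn2*, 67 for *Ccn1*, 46 for *Ccn3*, 171 for *Ccn4* and 298 for *Ccn5*, so the names carry little weight beyond the pattern.

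*Ccn5* and the summed activated fibroblast genes were highest in the same heart of each genotype, but their order among the other transgenic hearts differed. The 7 genes of the myofibroblast list (*Postn*, *Cilp*, *Meox1*, *Fn1*, *Cthrc1*, *Comp* and *Lox*) summed to 3490, 5678 and 2815 normalised counts in WT against 4074, 9432 and 1733 in the transgenic hearts. Replicate 2 was the highest of each genotype, as for *Ccn5*. Pontin cTG replicate 1, the lowest for *Ccn5*, was the middle one of the 3 transgenic hearts for this sum, and replicate 3 was the lowest. Of the 6 of these genes that were tested, 0 passed and 5 had a higher and 1 a lower value in the transgenic hearts, with a median of 0.44 on the log2 scale that became -0.56 without Pontin cTG replicate 2. The 8 general fibroblast markers summed to between 16048 and 27408 in WT and between 15580 and 25161 in Pontin cTG hearts, with replicate 2 again highest in each, no marker of either list at 0, and 4 higher and 4 lower. The part of cell composition in the *Ccn5* values was not tested.

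**Figure D4:**
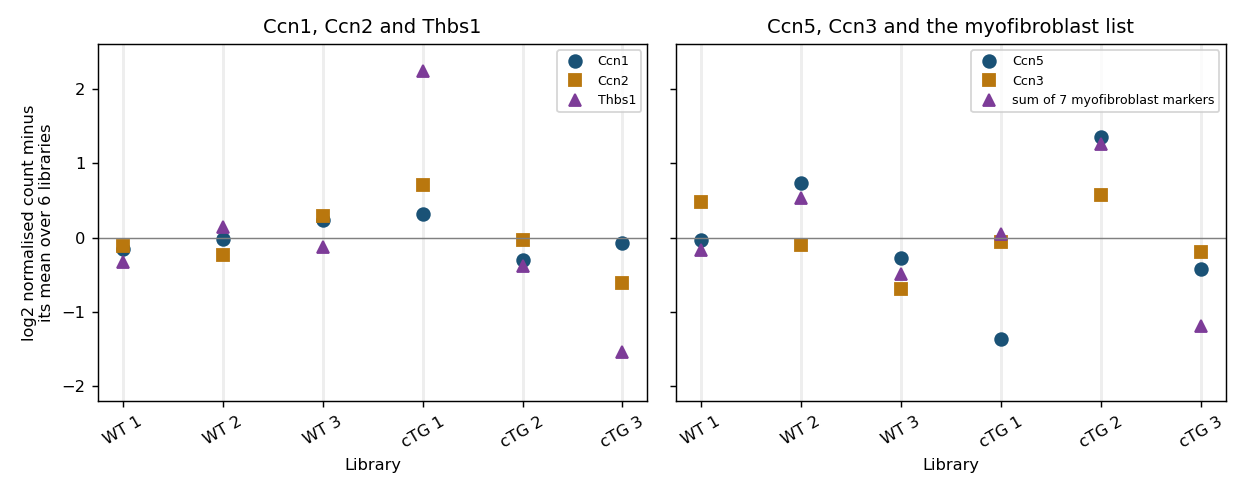
Log2 normalised count of each gene, or of the summed myofibroblast list, minus its own mean over the 6 libraries, 1 point per library (cTG 1 to 3 are Pontin cTG hearts). *Ccn2* and *Thbs1* are highest in cTG 1 (1938 and 2694 normalised counts) and *Ccn5* and the myofibroblast sum in cTG 2 (333 and 9432).

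Among 17 other genes of matricellular proteins, 14 were tested and 0 passed, with 8 higher and 6 lower among transgenic hearts and a median log2 difference of 0.038, beside 0.0013 for all genes tested. Leaving out transgenic replicate 2 turned this median to -0.34, and leaving out replicate 3 gave 0.20; it was also 0.20 after the second WT heart was left out and -0.026 after the third was. This list shares *Postn* and *Comp* with the myofibroblast list. The smallest p belonged to *Thbs4* (log2 fold change 1.02, standard error 0.72) and *Thbs1* (1.05, standard error 0.80), which encode thrombospondins. *Thbs4* had 149, 199 and 111 normalised counts in WT against 163, 695 and 66.7 in the transgenic hearts, with replicate 2 highest in each genotype. *Thbs1* had 454, 626 and 520 in WT against 2694, 435 and 197 in the transgenic hearts. Its highest library was that of *Ccn2* and its lowest too. Adjusted p was 0.999 for both genes in edgeR.

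Among receptors and binding partners of CCN proteins (integrin subunits, *Sdc4*, *Lrp1*, *Lrp6*, *Notch1* and others), 14 of 18 genes were tested and 0 passed, with 4 higher and 10 lower and a median log2 difference of -0.14. Leaving out transgenic replicate 3 brought this median to -0.0042, leaving out replicate 1 of the same group to -0.23, and leaving out the second WT heart to -0.075. *Lrp6*, a Wnt co-receptor that binds CCN2, had 1154, 1149 and 1170 normalised counts in WT against 1042, 644 and 959 in the transgenic hearts. It was the 1 gene of the 14 whose groups did not overlap, beside 8.33% of all genes tested. Its log2 difference was -0.39 with a standard error of 0.18, and p was 0.999 after adjustment in edgeR. The lowest value was that of replicate 2. *Itga2b*, the platelet integrin αIIb, had a log2 difference of -0.62 (standard error 0.35), with overlapping groups.

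Among 22 genes upstream of the family (YAP, TAZ and TEAD factors, SRF and its cofactors, TGF-β ligands, receptors and SMADs, *Edn1*, *Ednra*, angiotensin receptors and *Klf15*), 21 were tested and 0 passed, with 7 higher and 14 lower and a median log2 difference of -0.019, which was 0.0054 with library size alone. Leaving out transgenic replicate 1 brought it to -0.13, replicate 2 to -0.0021 and replicate 3 to -0.12, and leaving out the second or the third WT heart to -0.078 or -0.041. *Tead3*, a TEAD factor, had 110, 113 and 113 normalised counts in WT against 144, 177 and 121 in the transgenic hearts, with no overlap. In this list 1 gene was higher and 1 lower without overlap, beside 8.33% of all genes tested. *Tead3* had a log2 difference of 0.40 (standard error 0.18). *Mrtfb*, a cofactor of SRF, had one of -0.28 (standard error 0.14), with overlapping groups. Among 20 further YAP/TEAD target genes, a list from which *Ccn1* and *Ccn2* were left out, 19 were tested and 0 passed, with 5 higher and 14 lower and a median log2 difference of -0.13, or -0.058 without Pontin cTG replicate 2. *Nuak2* had the smallest p of this list (log2 fold change 0.66, standard error 0.34), with 102 normalised counts in Pontin cTG replicate 1 and 30.8 to 54.6 in the other libraries. *Rbms3* followed (-0.26, standard error 0.15). It was the 1 gene of these 19 whose groups did not overlap, beside 8.33% of all genes tested. Adjusted p was 0.999 for each of these 4 genes in edgeR.

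*Ccn1* is itself an immediate early gene, and 20 other genes of that class served for comparison. Of these, 18 were tested and 0 passed, with 12 higher and 6 lower and a median log2 difference of 0.32, against -0.023 for *Ccn1*. Those with an unadjusted p under 0.05 were 5, *Egr1*, *Ier2*, *Fos*, *Dusp1* and *Junb*, beside 2.05% of all genes tested, and all 5 had higher values in Pontin cTG hearts; the last 3 are named because their values had been seen. *Ier2* had 183, 167 and 191 normalised counts in WT against 263, 260.3 and 233 in the transgenic hearts. *Egr1* had 218, 229 and 221 in WT against 464, 259 and 478 in the transgenic hearts. Both genes had groups that did not overlap, as had 8.33% of all genes tested, and the adjusted p was 0.999 in edgeR. The log2 fold change of *Ccn1* was thus below those of the 2 genes, 0.85 (standard error 0.22) for *Egr1* and 0.48 (standard error 0.13) for *Ier2*, but the difference between genes was not tested. Without Pontin cTG replicate 1 the median of the list was 0.00021.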

How the data were processed

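Total RNA from 6 mouse hearts (3 WT and 3 Pontin cTG, all with Ang-II) was sequenced, and the authors deposited whole-number counts per Ensembl gene, not normalised, in a table of all libraries. The submitters' processing notes name fastp, HISAT2, featureCounts and GRCm39, whereas the paper's methods name Trimmomatic, STAR, mm10 and Gencode M25; 1472 of 52073 genes shared with a GRCm38 annotation have the same coordinates, so GRCm39 was taken as the table's build. The paper's methods mention an outlier left out of RNA-seq analysis, without naming it or its experiment, and also that no data were left out. All 6 libraries were used. Columns were matched by the names in the sample labels (0 unmatched, 0 rows without a gene name). No pair of libraries agreed within sampling noise (chi-square per gene of at least 5.62).

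Low counts were removed by filterByExpr at a minimum of 10. Genotypes were then compared with TMM factors in edgeR 4.0.16 (robust glmQLFit, glmQLFTest; R 4.3.3), genotype being the only term, with adjustment over 13888 genes. The standard error is the log2 fold change divided by the square root of F, and the 95% interval uses the moderated degrees of freedom. The common biological coefficient of variation was 0.197. Deviations of same-numbered libraries had correlations of 0.077, 0.43 and 0.19, and no source names a shared litter, so libraries were unpaired. On simulated counts with 100 genes changed 2-fold and 100 changed 4-fold, edgeR called 62 and 88, with 16 false calls among 13703 genes. Alternatives were DESeq2 1.42.0, its size factors, library size alone, other filters, mitochondrial genes left out, a replicate block, limma-voom (limma 3.58.1) and each library left out. Permutation tests used scipy 1.17.1.

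The CCN genes, the gene lists (written from general knowledge) and the tests were chosen with earlier results of these data known. Named besides the members are *Ccn6*, *Ruvbl1*, the 2 genes of each context list with the smallest p, and the 3 most alike genes per member. Where other genes appear, they identify a list or were chosen after their values were seen.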

Additional observations from a re-analysis of the deposited data

How the results depend on the processing

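Over the 14 alternatives, 0 CCN genes passed an adjusted p of 0.05; their adjusted p ran from 0.844 (*Ccn5*, limma-voom) to 0.9998. The replicate number as a block turned *Ccn5* to -0.19 and the median of the 5 members from 0.096 to -0.036 on the log2 scale, and changed no other direction and no call among the CCN genes; the libraries share only a number, and the block raised the genes at an unadjusted p under 0.05 from 285 to 499, with 0 past the adjusted threshold. limma-voom with sample quality weights gave 0.18 for *Ccn1*, -0.14 for *Ccn3*, -0.83 for *Ccn5* and -0.035 for the median of the 5, and library size alone gave 0.00033 for *Ccn1*. With single libraries left out, log2 fold changes ran from -0.20 to 0.11 for *Ccn1*, -0.29 to 0.38 for *Ccn2*, -0.099 to 0.52 for *Ccn3* and -1.01 to 0.53 for *Ccn5*. The medians ran from -0.20 to 0.32 for the 5 members, 0.00021 to 0.45 for immediate early genes, -0.34 to 0.20 for matricellular genes, -0.17 to -0.058 for YAP/TEAD targets, -0.23 to -0.0042 for receptors and -0.13 to -0.0021 for upstream genes. Genes past an adjusted p of 0.05 numbered 1 in DESeq2, 3 without a filter on low counts, 3 in limma-voom and 0 to 3 with a library left out, the 3 being without Pontin cTG replicate 2. Without division by length, *Ccn4* had rank 4 and *Ccn3* rank 5. The causes were not tested.

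Limits: 3 hearts per group leave 95% intervals from 0.740 to 1.31 (*Ccn1*) up to 0.406 to 2.81 (*Ccn5*) on the fold scale. Folds within these bounds were not excluded. *Ccn3* and *Ccn4* had at most 69 and 58 counts in a library.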

Other observations

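*Myh7*, the foetal β-myosin heavy chain, was read as part of the cardiomyocyte list and singled out after its values had been seen. It had 7476, 11962 and 3039 normalised counts in the WT hearts (replicates 1 to 3) against 3310, 20807 and 3080 in the transgenic ones. Its highest library in each genotype was replicate 2, as for *Ccn5*, and its values, like those of *Ccn5*, overlapped between the genotypes.

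Among macrophage markers, 6 of 6 were tested, with 2 higher and 4 lower in Pontin cTG hearts and a median log2 fold change of -0.42, which was -0.14 without WT replicate 2, the library with the highest sum, and -0.23 in limma-voom. None passed an adjusted p of 0.05 in edgeR, and 1, *Mrc1*, had an unadjusted p under 0.05, beside 2.05% of all genes tested. For 1 of the 6 the groups did not overlap, with lower transgenic values, beside 8.33% of all genes tested. The sum of the list ran from 2820 to 4559 normalised counts in WT hearts, against 2131 to 3279 in transgenic ones. Endothelial markers (6 of 6 tested) had a median of 0.020 (-0.11 once transgenic replicate 2 was left out), with 4 higher and 2 lower, and sums of 13157 to 13332 (WT) and 11420 to 16059 (Pontin cTG). Smooth muscle and pericyte markers (5 of 6 tested) had a median of -0.11 (-0.010 once transgenic replicate 3 was left out). Erythroid genes had a median of 0.0045, with -0.23 after transgenic replicate 1 was left out and 0.29 after the third WT heart was. Schwann cell markers, 3 of 4 tested, had a median of 0.15 (-0.26 once transgenic replicate 2 was left out). The 4 adipocyte markers summed to at most 6.83, and of the atrial and epicardial lists 1 gene each was tested, *Myl4* and *Wt1*, with log2 fold changes of 0.80 and 0.29.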
